A study of Homo sapiens with 6 samples.

Results

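The 78 protein-coding genes described here are named as mitochondrial ribosomal protein genes. They were taken from 35052 human genes as the protein-coding genes whose symbol begins with MRPL or MRPS followed by a number, 49 for the large subunit (MRPL) and 29 for the small subunit (MRPS). All 78 were among the 13131 genes with enough reads to be tested, and they lie on 21 chromosomes. Subunits are counted by symbol unless stated otherwise. By place, MRPS18A and MRPS30 sit in the large subunit, and MRPS36 is known as part of another complex. The libraries are polyadenylated RNA of EoL-1, an established human eosinophilic leukemia line. There are 3 libraries of wild-type EoL-1 and 3 of EoL-1 in which the stress-responsive transcription factor gene ATF3 was knocked out with CRISPR/Cas9. No other allele, agent or time point is labelled for either group. The series design text calls the derivative a knockdown, and the groups here follow the sample labels. The labels do not say whether the knockout is 1 clone or a pool, or whether the replicates were separate cultures, so a p-value here reflects no more than how far these libraries scatter, which may be technical.

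The mitochondrial ribosome translates the few mRNAs encoded in mitochondrial DNA, all of which specify subunits of the respiratory chain and the ATP synthase. Its ribosomal RNAs are transcribed inside the organelle, while every one of its proteins is encoded in the nucleus, made in the cytosol and imported. Many of the proteins descend from bacterial ribosomal proteins, and others have been added in mitochondria and have no bacterial counterpart.

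Promoters of the members often carried the core of a binding site for ETS-family transcription factors. In RefSeq promoters (GRCh38.p14, 250 bases before to 50 after a gene's start), 69 members had an entry, and CCGGAAG was found on either strand in 30 of them (43.5%), against 12.2% of the 27305 genes with an entry. Those 27305 genes were not limited to protein-coding ones, as the members are, so here and below the 2 shares are not of like sets. AAGATGGCG, a YY1 element, was in 13 members (18.8% against 2.14%). GCGCANGCG, the core of the NRF1 site, was in 14 (20.3% against 9.02%). The letters TGACGTCA, bound by ATF and CREB factors, were in 1 member (1.45% against 2.25%), and TGATGNAA, the composite element bound by C/EBP and ATF factors, was also in 1 (1.45% against 4.46%). CACGTG, the E-box, was in 9 (13.0% against 8.77%). No motif searched contains another. CCGGAAG was in 7 of the 11 members with an entry that fell in the knockout (MRPL3, MRPL48, MRPL54, MRPL58, MRPS10, MRPS22 and MRPS33), in 0 of the 2 that rose and in 23 of the 56 that did not pass, and the difference between these shares was not tested. A match is a string of letters and not a measured binding site. The 100 bases before the RefSeq start are shown for 4 of the 7, with CCGGAAG, or CTTCCGG where it is read on the other strand, in capitals. The windows are MRPL58 at chr17:75012570-75012669 (plus strand), MRPL54 at chr19:3762582-3762681 (plus strand), MRPS10 at chr6:42217862-42217961 (minus strand) and MRPL3 at chr3:131502972-131503071 (minus strand). The last bases of the windows of MRPL54, MRPS10 and MRPL3 reach into the first exon of a GENCODE 29 transcript.
MRPL58: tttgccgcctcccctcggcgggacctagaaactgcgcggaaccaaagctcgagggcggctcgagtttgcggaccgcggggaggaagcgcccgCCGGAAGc
MRPL54: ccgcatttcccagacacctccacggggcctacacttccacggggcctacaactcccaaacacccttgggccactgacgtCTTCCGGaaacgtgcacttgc
MRPS10: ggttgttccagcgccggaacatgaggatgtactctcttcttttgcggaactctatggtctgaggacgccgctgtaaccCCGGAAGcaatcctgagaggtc
MRPL3: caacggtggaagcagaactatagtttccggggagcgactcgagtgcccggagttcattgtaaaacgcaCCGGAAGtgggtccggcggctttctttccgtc

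The libraries held 26766103 to 30117281 estimated reads each, and in a principal component analysis of all genes tested the first component (42.1% of the variance) separated the groups, with wild-type replicate 2 nearest to the knockout libraries. For ATF3 itself 634, 462 and 632 reads were estimated in the wild-type libraries, against 146, 229 and 132 after knockout, a log2 fold change of -1.75 (SE 0.25, edgeR adjusted p = 0.00980), and -1.68 with an edgeR adjusted p of 0.0527 when wild-type replicate 1 was left out. No 2 libraries of a group were alike to within sampling noise. Of the 11 eosinophil markers examined, 3 had enough reads to be tested, of which RNASE2 and RNASE3 rose in the knockout, while CLC, PRG3, IL5RA and GATA1 had 0 reads in all 6 libraries and EPX had 2 in all. The labelled cell type thus had the granule ribonucleases RNASE2 (36.3 CPM in wild type, 132 in the knockout) and RNASE3 (8.69 and 27.2 CPM), while the other granule and receptor genes named here were at or near 0 in both groups.

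Mitochondrial ribosomal protein genes passed the test about as often as all genes did, and those that passed were mainly lower in the knockout. By edgeR's quasi-likelihood test with Benjamini-Hochberg adjustment over all genes (adjusted p at or under 0.05), 13 of the 78 fell (16.7%), 2 rose (2.56%) and 63 did not pass. In either direction 19.2% passed. Among all genes tested, 9.72% fell, 11.4% rose and 21.1% passed in either direction. The members that fell were 7 of the large subunit (MRPL1, MRPL3, MRPL15, MRPL37, MRPL48, MRPL54 and MRPL58) and 6 of the small subunit (MRPS10, MRPS22, MRPS28, MRPS30, MRPS33 and MRPS35). Those that rose were MRPL34 and MRPS6. None of the 15 differed by as much as 1.5-fold, the largest being 1.49-fold for MRPL58. The fitted change was below 0 in 53 members, beside 6476 of all 13131 genes tested, and 23 members lay within 0.1 of 0 on the log2 scale. The median log2 fold change was -0.11 over the 78 members, beside 0.0054 over all genes tested. In 28 members (35.9%) every knockout library was lower than every wild-type library, against 21.4% of all genes, and in 13 (16.7%) every knockout library was higher, against 22.2%. The calls depended on 2 wild-type libraries. Without wild-type replicate 1, edgeR called 0 members (smallest adjusted p over all genes 0.0503), with 20 at an unadjusted p under 0.05, 17 of them lower, while DESeq2 called 9 lower and 1 higher and limma-voom 0. Without wild-type replicate 3 edgeR again called 0 members, with 17 at an unadjusted p under 0.05, 15 of them lower. Over all genes that edgeR fit called 148 lower and 210 higher. DESeq2 then called 10 members lower and 1 higher (1012 and 1202 of all genes), and limma-voom 0 members. Without knockout replicate 1, edgeR called 7 members lower and 0 higher, and without knockout replicate 2 it called 11 lower and 1 higher. The counts over all genes in those fits are not given singly here. All 15 called members kept their sign in each of the 6 fits that left out a library. Their groups did not overlap, so this was bound to follow and adds no support to the calls.

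**Figure D1:**
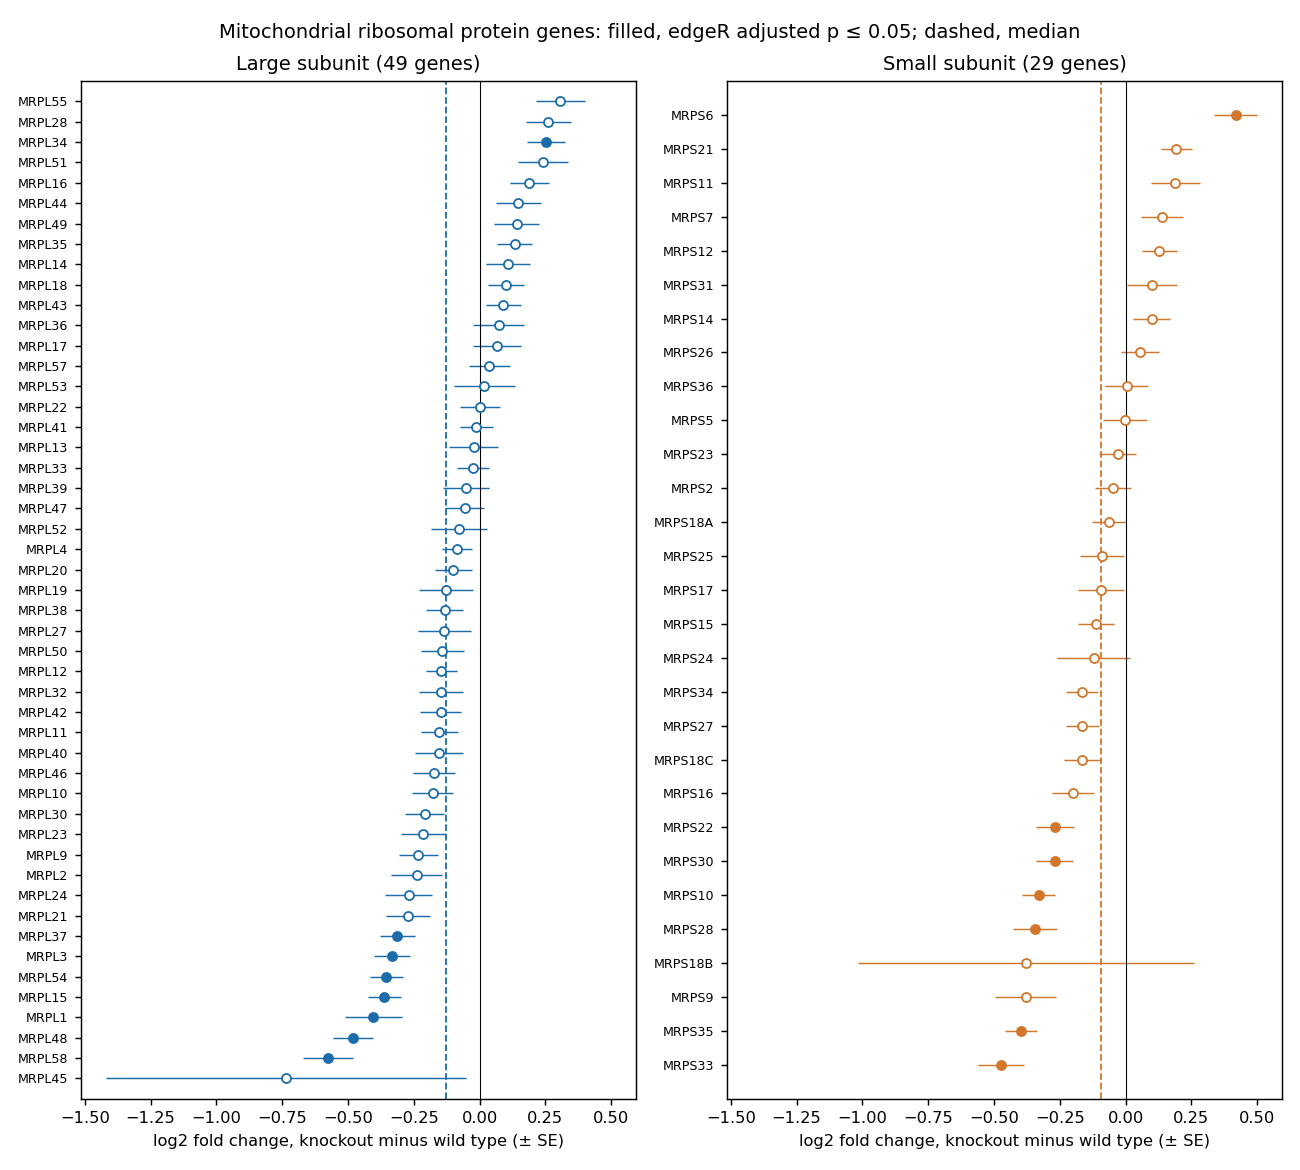
Log2 fold change of each of the 78 members (x axis, knockout minus wild type, bars ± SE), large subunit on the left and small subunit on the right, in order of size. Filled points are the 15 members with an edgeR adjusted p at or under 0.05, and the dashed lines are the subunit medians, -0.13 and -0.09. The 2 members with wide bars, MRPL45 and MRPS18B, had few or scattered reads.

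In the large subunit, the member with the largest called fall was MRPL58 (chr17:75012670-75021261, plus strand), a peptidyl-tRNA hydrolase related to release factors that is built into the subunit and frees stalled ribosomes. Its level, in read counts brought to a common library size with edgeR's TMM factors (CPM), was 40.0, 33.5 and 37.9 across wild type and 25.7, 22.9 and 26.2 across the knockout, here and below in the order of the replicate numbers. All 3 knockout libraries were below all 3 wild-type libraries, and the log2 fold change was -0.58 (SE 0.095, edgeR adjusted p = 0.0121). Most of its reads, 96.9% in wild type, were assigned to 1 transcript, ENST00000301585.10.

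MRPL48 (chr11:73787316-73865133, plus strand), a mitochondria-specific protein of the central protuberance, measured 34.4, 33.2 and 34.1 CPM in wild type against 24.4, 22.5 and 26.01 CPM in the knockout. The wild-type values lay within a narrow band and the knockout values well under it, with a log2 fold change of -0.48 (SE 0.077, edgeR adjusted p = 0.0114). MRPL54 (chr19:3762664-3768575, plus strand), also without a bacterial counterpart, measured 41.7, 40.9 and 42.3 CPM in wild type against 33.6, 32.7 and 31.4 CPM in the knockout. The groups were again apart, with the SD of wild type at 0.693 CPM and that of the knockout at 1.10 CPM, and the log2 fold change was -0.35 (SE 0.062, edgeR adjusted p = 0.0138).

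Among members with a bacterial counterpart, MRPL1 (chr4:77862520-77952790, plus strand), the protein of the mobile L1 stalk through which tRNAs leave, had 40.0, 34.5 and 37.7 CPM in wild type and 28.6, 31.6 and 24.7 CPM in the knockout. Its groups did not overlap, but its spread was the widest of the 15 called members in SE, and the log2 fold change was -0.40 (SE 0.11, edgeR adjusted p = 0.0406). Its call was lost with the effective length offset (adjusted p = 0.0862), with the length trend removed (0.0716) and with the replicate block (0.0653). MRPL15, on chromosome 8, had 83.0, 77.6 and 85.7 CPM in wild type and 63.8, 64.2 and 63.7 CPM in the knockout. The 3 knockout values were nearly equal and all below wild type, with a log2 fold change of -0.36 (SE 0.062, edgeR adjusted p = 0.0130). MRPL3 (chr3:131462212-131502983, minus strand), whose bacterial counterpart reaches towards the peptidyl transferase centre, had the most reads of any called member, 4537, 4197 and 4332 in wild type and 3252, 3208 and 3810 in the knockout. Its log2 fold change was -0.33 (SE 0.070, edgeR adjusted p = 0.0207). The call of MRPL3 was lost with the effective length offset (edgeR adjusted p = 0.0778) and with the GC trend removed (0.0868). MRPL37 (chr1:54184041-54225464, plus strand), a mitochondria-specific protein, had a log2 fold change of -0.31 (SE 0.066, edgeR adjusted p = 0.0214). It shares exon bases on the opposite strand with CYB5RL and SSBP3, neither of which passed the test. The call of MRPL37 was lost with the effective length offset (edgeR adjusted p = 0.0501).

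In the small subunit, the members with the largest called falls were both without a bacterial counterpart. MRPS33 (chr7:141002610-141015228, minus strand) had 47.1, 43.1 and 48.7 CPM in wild type and 34.7, 30.3 and 35.2 CPM in the knockout. The lowest wild-type library was above the highest knockout library, and the log2 fold change was -0.47 (SE 0.087, edgeR adjusted p = 0.0152). The call of MRPS33 was lost with the effective length offset (edgeR adjusted p = 0.0507). MRPS35 (chr12:27710773-27756295, plus strand), a protein of the head of the subunit, had 97.0, 89.5 and 96.9 CPM in wild type and 72.7, 72.9 and 69.6 CPM in the knockout. The groups were separate here too, with a log2 fold change of -0.40 (SE 0.062, edgeR adjusted p = 0.0110), the smallest adjusted p among the 78 members.

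MRPS28, on chromosome 8, had 23.8, 24.2 and 22.7 CPM in wild type and 19.0, 19.6 and 17.1 CPM in the knockout. It had the fewest reads of the called members, 494 to 690 per library. Its groups did not overlap, with a log2 fold change of -0.34 (SE 0.083, edgeR adjusted p = 0.0311). The call of MRPS28 was lost with the effective length offset (edgeR adjusted p = 0.0592) and with the length trend removed (0.0664). MRPS10 (chr6:42206801-42217865, minus strand), the counterpart of bacterial S10, went from 95.6 ± 4.67 CPM in wild type to 76.0 ± 2.31 CPM in the knockout (SD, n = 3 each). Its log2 fold change was -0.33 (SE 0.063, edgeR adjusted p = 0.0167), with every read on a single transcript in both groups. The call of MRPS10 was lost with the GC trend removed (edgeR adjusted p = 0.0750). MRPS22 (chr3:139005806-139357223, plus strand), a mitochondria-specific protein mutated in inherited respiratory chain deficiency, went from 35.9 ± 0.420 to 29.8 ± 1.83 CPM (SD, n = 3 each), a log2 fold change of -0.27 (SE 0.071, edgeR adjusted p = 0.0385). Its call was lost with the effective length offset (adjusted p = 0.113), with the GC trend (0.0746) or the length trend (0.0533) removed and with the replicate block (0.0711). It shares 86 exon bases on the opposite strand with COPB2, which rose, and the strand setting of the quantification is not given in the sources used here, so reads may be divided differently between them.

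The 3 members whose symbol does not match their place differed among themselves. MRPS30 (chr5:44808925-44820428, plus strand), which sits in the large subunit despite its name and resembles MRPL37, had 76.2, 70.4 and 78.5 CPM in wild type and 62.5, 59.5 and 64.8 CPM in the knockout. Its groups did not overlap, and its log2 fold change was -0.27 (SE 0.069, edgeR adjusted p = 0.0362). The call of MRPS30 was lost with the GC trend removed (edgeR adjusted p = 0.114). MRPS18A, a relative of bacterial S18 that also sits in the large subunit, had a log2 fold change of -0.06 (SE 0.064, edgeR adjusted p = 0.522), and its groups overlapped. MRPS36, which is known as a subunit of the oxoglutarate dehydrogenase complex rather than of the ribosome, measured 20.4 ± 1.34 CPM in wild type and 20.5 ± 0.512 CPM in the knockout (SD, n = 3 each), with an edgeR adjusted p of 0.980.

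The 2 members that rose both have a bacterial counterpart. MRPS6 (chr21:34073224-34143034, plus strand), a protein of the platform of the small subunit, had 39.0, 45.0 and 39.6 CPM in wild type and 56.5, 56.8 and 52.0 CPM in the knockout. Every knockout library exceeded every wild-type library, and the log2 fold change was 0.42 (SE 0.081, edgeR adjusted p = 0.0174). Its locus overlaps SLC5A3, the myo-inositol transporter gene, by 273 exon bases on the same strand, and SLC5A3 had a log2 fold change of 0.48 (edgeR adjusted p = 0.115), so how the reads were split between the 2 genes is uncertain. The share of MRPS6 reads on its coding transcript ENST00000399312.3 was 54.8% in wild type and 66.1% in the knockout. MRPL34 (chr19:17292609-17306843, plus strand), a small basic protein, had 41.8, 47.5 and 45.5 CPM in wild type and 52.6, 53.0 and 55.0 CPM in the knockout. The groups did not overlap, and the log2 fold change was 0.25 (SE 0.071, edgeR adjusted p = 0.0457). ABHD8, on the opposite strand, shares 223 exon bases with it and rose by 1.92 on the log2 scale, but had 232 reads in all 6 libraries beside 8189 for MRPL34. The call of MRPL34 was lost with the effective length offset (adjusted p = 0.139), with the GC trend removed and with the replicate number in the fit, while that of MRPS6 held in all 3.

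**Figure D2:**
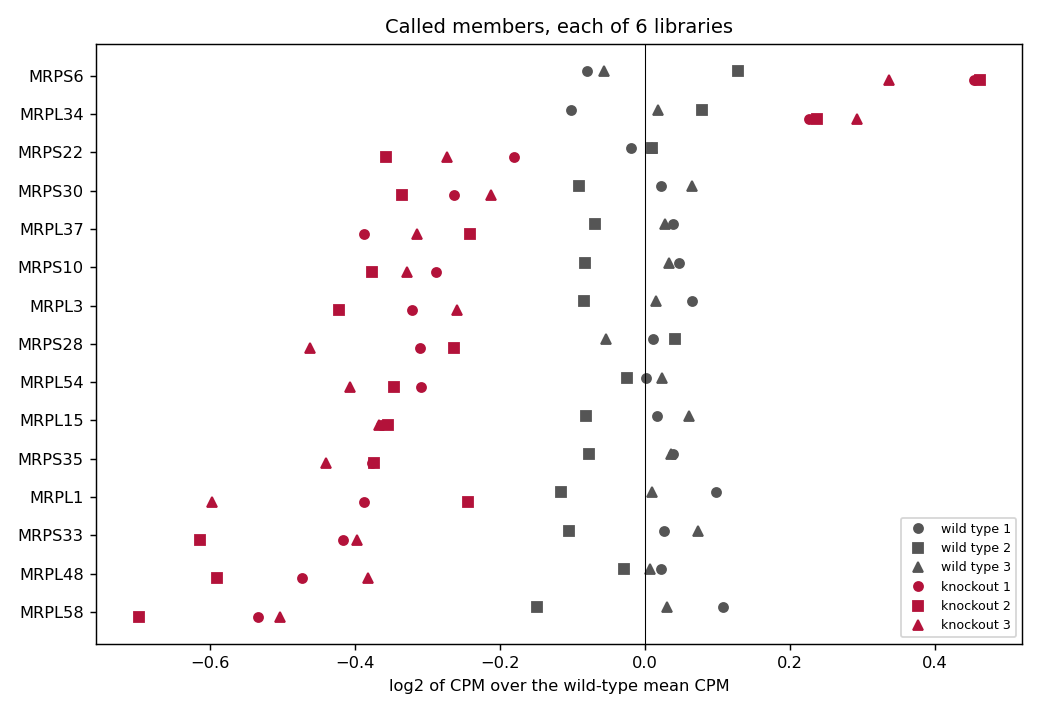
Level of each of the 15 called members in each library, as the log2 of its CPM over the mean CPM of the 3 wild-type libraries (x axis), with wild type in grey and knockout in red and a marker shape for each replicate number. For each of the 15 genes the 3 knockout points lie on one side of all 3 wild-type points, to the left for 13 and to the right for MRPS6 and MRPL34.

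Just beyond the threshold were MRPL21 (log2 fold change -0.27, edgeR adjusted p = 0.0568), MRPL55 (0.31, 0.0571), MRPS9 (-0.38, 0.0584) and MRPS21 (0.19, 0.0586). The knockout libraries of these 4 members were separate from wild type, below it for MRPL21 and MRPS9 and above it for MRPL55 and MRPS21. They are given for their place beside the threshold and were chosen after their values were seen. Outside the called members, the knockout group lay wholly below wild type in 15 members and wholly above it in 11, and the groups overlapped in 37. The same shares were not taken over all uncalled genes, so these counts are not read as a result about the members.

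The summed levels of the large and small subunits moved by like amounts. Of the large subunit members 7 fell (14.3%), 1 rose (2.04%) and 41 did not pass. Of the small subunit members 6 fell (20.7%), 1 rose (3.45%) and 22 did not pass. Among all genes tested 9.72% fell and 11.4% rose, and the difference between the subunits was not tested. The fitted change was below 0 in 33 of 49 and 20 of 29, and the median log2 fold change was -0.13 and -0.09. The summed level of the large subunit was 2426, 2385 and 2450 CPM in wild type and 2233, 2288 and 2265 CPM in the knockout. That of the small subunit was 1440, 1423 and 1454 CPM in wild type and 1310.0, 1327 and 1364 CPM in the knockout. Both sums were lower in all 3 knockout libraries, with differences of -6.55% and -7.32% of the wild-type mean. The ratio of the large to the small sum was 1.68, 1.68 and 1.69 in wild type and 1.70, 1.72 and 1.66 in the knockout, so the groups overlapped. The overlap rested on knockout replicate 3, which lay below every wild-type library, while knockout replicates 1 and 2 lay above them all. The log2 of that ratio differed by 0.0122 between the group means, less than its pooled SD over libraries of 0.0202. With MRPS18A and MRPS30 counted in the large subunit and MRPS36 left out, the difference was 0.0025.

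**Figure D3:**
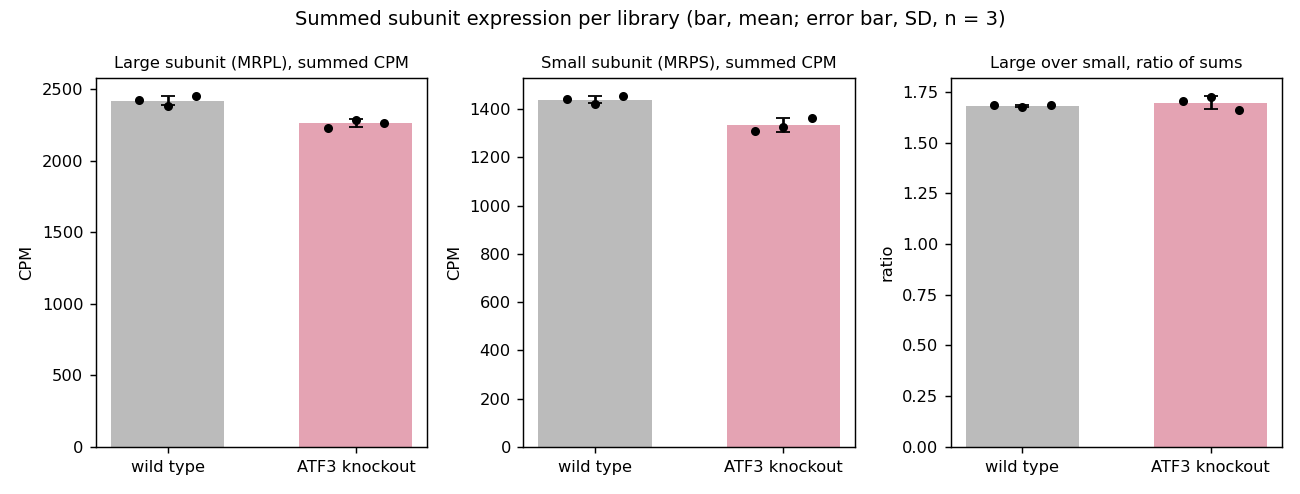
Summed CPM of the 49 large subunit genes, summed CPM of the 29 small subunit genes, and the ratio of the sums, by group. Bars are means and error bars SD of 3 libraries, points are libraries, and all axes start at 0; the sums are lower in the knockout libraries, while the ratios overlap.

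The size of the summed difference depended on the scale. Over the 78 members the summed CPM was 3859 ± 48.4 in wild type and 3596 ± 46.4 in the knockout (SD, n = 3 each), a difference of -6.84% with no overlap. The summed TPM, as deposited, was 4409 ± 31.1 and 4307 ± 125, and its groups overlapped (4388, 4445 and 4395 in wild type, 4215, 4449 and 4258 in the knockout). TPM, reads per transcript length, is scaled to a fixed total in each library, without TMM factors. The mRNAs encoded in mitochondrial DNA, which also count towards that total, took 36259 to 38655 CPM in wild type and 46592 to 56556 CPM in the knockout, and their part in the difference between the scales was not tested.

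The knockout libraries were not alike in the small subunit. The median deviation of its members from their wild-type mean, on the log2 scale, was -0.13 in knockout replicate 1, -0.11 in replicate 2 and -0.02 in replicate 3. The same measure for the large subunit was -0.09, -0.07 and -0.07. Knockout replicate 3 thus lay nearest to wild type for the small subunit and with the other knockout libraries for the large one.

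Levels of the members in wild type, compared per length in TPM, spanned a wide range. With all transcripts of a gene summed, noncoding ones included, MRPL33, the counterpart of bacterial L33, was the most abundant at 211 ± 12.5 TPM, followed by MRPL52 at 156 ± 20.2 TPM and MRPL4, the counterpart of bacterial L4 that lines the exit tunnel, at 117 ± 1.77 TPM (SD, n = 3 each). MRPL33 exceeded MRPL52 in every library, and MRPL52 exceeded MRPL4, and MRPL4 exceeded MRPL41 (110 ± 3.91 TPM), while MRPL41 and MRPL18 (110 ± 5.00 TPM) did not differ beyond their spread. In the small subunit MRPS36 stood at 96.9 ± 11.9 TPM, MRPS18C at 85.1 ± 4.28 TPM and MRPS34 at 83.4 ± 5.05 TPM, and these 3 overlapped by their SDs. With protein-coding transcripts alone, an alternative chosen after seeing the data, the order was different. MRPL33 stood at 77.6 ± 8.46 TPM, MRPL52 at 59.4 ± 20.5 TPM and MRPS36 at 13.3 ± 1.07 TPM, with 36.7%, 38.2% and 13.7% of their summed TPM on coding transcripts. MRPL4 was then highest at 116 ± 1.72 TPM, ahead of MRPL41 and MRPL18, and MRPS23, MRPS15 and MRPS28 were highest in the small subunit at 65.6 to 66.0 TPM (66.0 ± 3.16 for MRPS23). MRPS18C is the member of the S18 family that takes the place of bacterial S18. MRPL33, MRPL52, MRPL4, MRPS36, MRPS18C and MRPS34 did not pass the test between the groups. The median was 50.5 TPM for the large subunit and 43.8 TPM for the small subunit. Apart from MRPL45 and MRPS18B, the 10th and 90th percentiles of all members were 22.5 and 97.8 TPM, and reads per library ran from 327 to 4537.

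**Figure D4:**
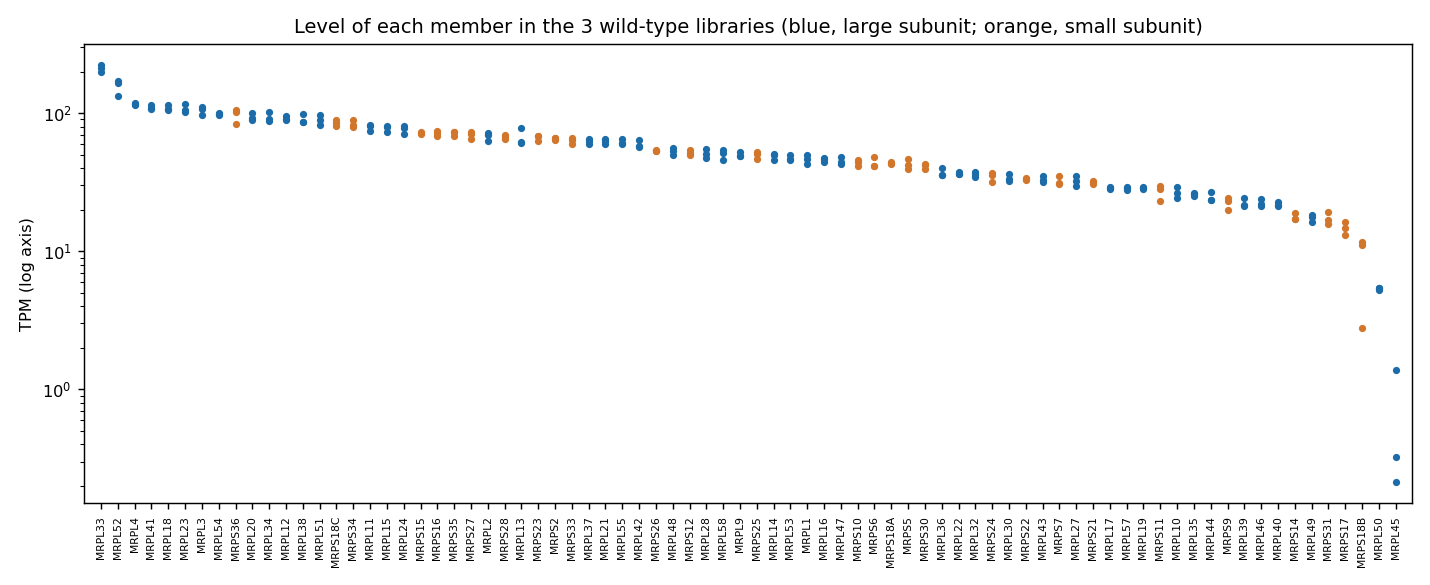
TPM of each member in each of the 3 wild-type libraries (y axis, log scale), with all its transcripts summed, ordered by mean, with large subunit genes in blue and small subunit genes in orange. Members of both subunits are mixed along the order from MRPL33 at 211 TPM, and MRPL45, MRPL50 and MRPS18B lie lowest.

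With all transcripts summed, the lowest members were MRPL45 at 0.636 ± 0.642 TPM and MRPL50 at 5.37 ± 0.128 TPM in the large subunit, and MRPS18B at 8.48 ± 4.94 TPM and MRPS17 at 14.8 ± 1.61 TPM in the small subunit (SD, n = 3 each). MRPL50 was steady, with 541 to 549 reads in wild type, and its low TPM goes with a long transcript of 3336 bases. MRPL45, the protein by which the ribosome is tethered to the inner membrane, drew 58, 14 and 9 reads from wild type, and the knockout gave 14, 19 and 15. For MRPS18B the wild-type libraries gave 432, 107 and 415 reads, and the knockout gave 229, 93 and 416. The groups overlapped for both genes. A further 10429 deposited transcripts, with 3.59 to 3.82% of the reads, matched no gene of the annotation, and whether any of them belong to these 2 genes was not tested, so their values are not read as levels. Across the other 76 members the coefficient of variation of CPM within a group had a median of 4.94% in wild type and 6.04% in the knockout. The largest values were 10.3% and 17.0%. The called members were picked by a test that weighs their difference against such spread, so the 2 are not compared here.

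Both members with and members without a bacterial counterpart fell. Of the 30 mitochondria-specific members 8 fell and 0 rose (26.7% and 0%, median log2 fold change -0.14), and of the 48 with a bacterial counterpart 5 fell and 2 rose (10.4% and 4.17%, median -0.10), beside 9.72% and 11.4% of all genes. Among members with an MRPS symbol 4 of 11 mitochondria-specific ones fell, MRPS22, MRPS30, MRPS33 and MRPS35, and 2 of 18 with a counterpart did. Those 11 include MRPS30, which sits in the large subunit, and MRPS36, which is not known as a ribosomal protein. The medians of the 2 classes differed by -0.04 on the log2 scale, and with the trend on GC content removed by 0.0065, so the order of the medians turned. With that trend removed, 8 of the 30 mitochondria-specific members and 10 of the 48 with a counterpart fell. The classes differ in size, and as a share of its class the mitochondria-specific count was still the higher, at 26.7%. The difference between the classes was not tested.

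The members that fell had a lower median GC content than the rest. It was 45.9% in the members that fell, 53.5% in the 2 that rose and 52.0% in those not called. Over all members it was 50.9%, against 49.5% over all genes tested. Not every member that fell was low in GC, as MRPL54 had 60.9% and MRPL37 55.5%. The members' transcripts were short, with a median of 1020 bases against 2083 bases over all genes tested. When a trend on GC content was removed from each library, 18 members fell and 2 rose, 9 of the 13 among those 18 (MRPL1, MRPL15, MRPL37, MRPL48, MRPL54, MRPL58, MRPS28, MRPS33 and MRPS35). With a trend on length removed, 10 fell, all among the 13, and 4 rose. The shares of all genes called with the GC or the length trend removed are not given here. The counts of members under these trends therefore have no background beside them. With the effective length of each gene's estimated transcript mix as an offset, 7 fell (MRPL15, MRPL48, MRPL54, MRPL58, MRPS10, MRPS30 and MRPS35) and 1 rose (MRPS6). MRPL15, MRPL48, MRPL54, MRPL58 and MRPS35 were called lower under each of these 3 corrections.

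Several members start close to a gene on the other strand. A protein-coding gene started within 1000 bases in the opposite direction for 17 members, and of these 17 neighbours 3 rose and 1 fell. Among all genes tested 11.4% rose and 9.72% fell, and the counts of neighbours are not read as a result about the members. MRPL54, the only called member among them, fell while its neighbour APBA3 rose by 0.53 (SE 0.10, edgeR adjusted p = 0.0176). MRPL46 and MRPS11, each counted as the neighbour of the other, start 34 bases apart. They had log2 fold changes of -0.17 and 0.19, neither past the threshold. These neighbours were named after their values were seen.

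Of 65 other nuclear genes of mitochondrial gene expression, in 4 lists, 11 fell (16.9%) and 2 rose (3.08%), beside 9.72% and 11.4% of all genes. Of 5 ribosomal proteins outside the symbol rule and the ribosome-bound insertase OXA1L, DAP3 alone passed, a GTP-binding protein of the small subunit, with a log2 fold change of -0.26 (SE 0.065, edgeR adjusted p = 0.0346), and the median of the 6 was 0.024. Of 29 assembly and rRNA modification factors 2 fell, C1QBP (-0.22, SE 0.052) and RBFA (-0.22, SE 0.061), the latter a maturation factor of the small subunit, and 1 rose, MPV17L2 (0.49, SE 0.13), with a median of -0.03. Of 17 translation factors 5 fell and 0 rose, with a median of -0.09. They included GUF1 (-0.47, SE 0.073), a counterpart of bacterial LepA, the elongation factor GFM1 (-0.40, SE 0.072) and the initiation factor MTIF2 (-0.38, SE 0.073). Of 13 genes of mitochondrial transcription and RNA processing 3 fell and 1 rose, with a median of -0.02. Those that fell were the transcription factor TFB2M (-0.39, SE 0.093), the polyadenylating polymerase MTPAP (-0.27, SE 0.068) and the helicase SUPV3L1 (-0.29, SE 0.073). In every one of these called genes the groups did not overlap. Over these 4 lists and the 13 mitochondrially encoded mRNAs, of which 9 rose and 0 fell, edgeR called 11 genes lower and 11 higher. With wild-type replicate 1 or 3 left out, edgeR and limma-voom called 0 of them, with 15 lower and 14 higher at an unadjusted edgeR p under 0.05 in either case, while DESeq2 called 8 lower in both and 9 and 11 higher. By edgeR 5, 4 and 7 genes fell without wild-type replicate 2, knockout replicate 1 and knockout replicate 2.

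The templates and the cytosolic counterpart stood further from 0 than the members. Of the 13 mRNAs encoded in mitochondrial DNA 9 rose and 0 fell, with a median of 0.43. Among them MT-CO1 rose by 0.54 (SE 0.079), MT-CO2 by 0.54 (SE 0.077) and MT-ND5 by 0.74 (SE 0.11), with edgeR adjusted p of 0.01003, 0.00977 and 0.0102. Nuclear copies of mitochondrial genes make their read assignment uncertain. Of 77 cytosolic ribosomal protein genes tested 29 fell and 0 rose, with a median of -0.26. Examples are RPL35 (-0.41), RPL5 (-0.35) and RPL17 (-0.25). Without wild-type replicate 1 or 3, the edgeR calls of MT-CO1 (adjusted p = 0.0597 and 0.0510), MT-ND5 (0.0545 and 0.0508) and RPL35 (0.0730 and 0.0691) were lost. The members' shares of 16.7% falling and 2.56% rising lay between those of the cytosolic genes, 37.7% and 0, and those of all genes, 9.72% and 11.4%, and differences between the lists were not tested.

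**Figure D5:**
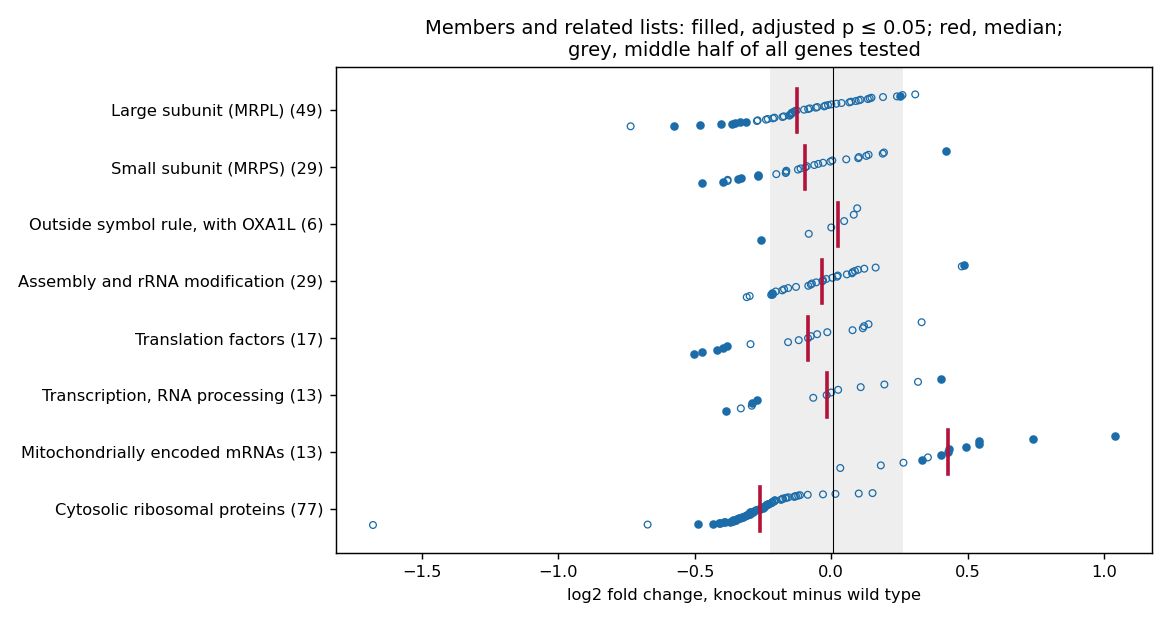
Log2 fold change of each gene (x axis, points, knockout minus wild type) in the 2 subunits and 6 related lists (the list outside the symbol rule holds 5 ribosomal proteins and OXA1L), with the number of genes tested in brackets. Filled points passed the test, red bars are list medians (-0.13 for the large subunit, 0.43 for the mitochondrially encoded mRNAs, -0.26 for the cytosolic ribosomal proteins), and the grey band holds the middle 50% of all genes tested.

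Some markers of other states moved with the groups. Of 12 growth and proliferation genes 11 had a fitted change below 0, beside 6476 of all 13131 genes tested. Only MCM6, a replicative helicase subunit, passed, with a log2 fold change of -0.42 (SE 0.073, edgeR adjusted p = 0.0135). The list's summed level was 3829 to 4061 CPM in wild type and 3130 to 3674 CPM in the knockout. Among all genes tested 11.4% rose and 9.72% fell. Of 7 neutrophil markers 4 were tested and 3 rose, MPO, S100A8 and MS4A3, while S100A9 did not pass (edgeR adjusted p = 0.0674). The 7 summed to 54.6 to 153 CPM in wild type and 280 to 590 CPM in the knockout, mostly from MPO, S100A8 and S100A9. ELANE, AZU1 and PRTN3 were at 0 in all 6 libraries. Of 7 monocyte genes 4 were tested and 2 rose, with sums of 182 to 638 CPM and 671 to 1333 CPM. The 11 eosinophil markers summed to 36.8 to 52.0 CPM and 116 to 186 CPM, mostly from RNASE2 (means of 36.3 CPM in wild type and 132 CPM in the knockout). Of 5 lymphocyte genes 1 was tested and did not pass, and of 4 stroma or endothelium genes PECAM1 rose. In wild type, replicate 2 had the highest neutrophil and monocyte sums. The part of these shifts in the members' values was not tested, and in bulk RNA fewer cells of a type and less RNA per cell cannot be told apart.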

How the data were processed

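RNA-seq of 6 libraries was analysed, 3 wild type and 3 knockout, grouped by the sample labels. Libraries were made from polyadenylated RNA with a stranded mRNA kit, per the labels' protocols. The authors deposited a Salmon table per library with an estimated count and a TPM for each of 177456 transcripts, as the file headers show. Per the submitters' processing notes, the tools were Salmon 1.6.0 and FastQC 0.11.9 and the build hg38. Which transcriptome release, library type and bias options were set is not given in the sources used here. Of the estimated counts above 0, 93.0% were not whole, and such estimates can shift reads between similar or overlapping genes.

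Transcripts were joined to GENCODE 29 genes (GRCh38) by identifier, version ignored: 167027 matched, 155671 with the same version. Estimated counts were summed per gene and rounded, and 34878 of 35052 genes had a current symbol. The main test was edgeR 4.0.16 (R 4.3.3) quasi-likelihood, fitted to all 6 libraries with group as the only term, with TMM scaling, filterByExpr (minimum count 10) and Benjamini-Hochberg adjustment over all 13131 genes at 0.05. The biological coefficient of variation was 16.8%. The procedure was tested on simulated data. Deposited TPM were used for levels only. GC content was known for 99.9% of genes tested. Promoters came from RefSeq.

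Alternatives were RLE and upper-quartile scaling, no filter on low counts, DESeq2 1.42.0, limma-voom (limma 3.58.1), the replicate number as a block, offsets for effective length, a length trend or a GC trend, another subunit assignment, CPM per kilobase, and each library left out. Leaving out MRPL45 and MRPS18B, levels from protein-coding transcripts alone, and DESeq2 and limma-voom without a wild-type library, were chosen after seeing the data. The members and gene lists were chosen with earlier results of these data known. Members described in full were, per direction, up to 8 called members with the largest absolute log2 fold change, at least 1 CPM and groups that do not overlap, the 3 most and 2 least abundant of each subunit, and MRPS18A, MRPS30 and MRPS36. From each related list up to 3 called genes with the smallest p were named. Other genes were named after their values were seen.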

Additional observations from a re-analysis of the deposited data

How the results depend on the processing

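At 327 to 4537 reads per member and library (76 members) and 3 libraries a group, the smallest change called in a member was 0.25 on the log2 scale (MRPL34). Without 1 library the counts of members ranged from 0 to 16 lower and 0 to 2 higher, and those of all genes from 0 to 1388 lower and 0 to 1370 higher, with 0 for both when wild-type replicate 1 was left out (edgeR, 3496 genes at an unadjusted p under 0.05, and 1073 higher and 963 lower by DESeq2). With the effective length offset 7 members fell and 1 rose, and 661 and 722 of all genes. The count of members that rose was 1 with upper-quartile scaling and with no filter on low counts, and 4 with the length trend removed. Related lists gave 7 lower genes with the replicate block and 3 with the effective length offset, beside 11, and 0 to 12 lower and 0 to 12 higher without 1 library.

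With the replicate block 11 members fell, all of the 13 but MRPL1 and MRPS22, and 1 rose. Deviations of libraries sharing a replicate number correlated at -0.092, 0.106 and 0.196, so the numbers were not taken to pair the samples, and not every library correlated best with its own number.

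The large subunit median was -0.15 with upper-quartile scaling, -0.098 with the effective length offset, -0.078 with the length trend removed and -0.090 with the GC trend removed, and -0.11 to -0.097 without 1 library. The small subunit median was -0.16 to -0.065 without 1 library. The difference between structural classes was 0.0065 with the GC trend removed and -0.070 to -0.0087 without 1 library. ATF3 ranged from -2.03 to -1.58 without 1 library, with an adjusted p of 0.0527 without wild-type replicate 1. In every alternative run the difference in the log2 large to small ratio shifted from its main value of 0.0122 by less than the pooled SD of 0.0202. That SD includes knockout replicate 3, the only knockout library with a ratio below wild type. The ratio of the 90th to the 10th percentile of member TPM in wild type was 4.40, and 11.1 with protein-coding transcripts alone.

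Among uncalled members that changed sign, MRPL33 was 0.0074, 0.027 and 0.081 with the effective length offset, length trend and GC trend. The GC trend gave MRPL50 0.087 and MRPS18C 0.021, and the effective length offset gave MRPS17 0.0055. MRPS36 was -0.0031 with RLE scaling, -0.018 with upper-quartile scaling, -0.0033 with DESeq2 and -0.029 with the effective length offset, and -0.033 to 0.056 without 1 library. MRPL45 ranged from -1.15 to 0.49 and MRPS18B from -0.93 to 0.0073 without 1 library. The cause of these changes was not tested.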
